A study of Mus musculus with 6 samples.

Results

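The cytosolic and organellar chaperones of the Hsp70 and Hsp90 systems were compared between mature and elongating fiber cells of the mouse lens. Members were the genes whose annotated symbol names an Hsp70 or Hsp110 (Hspa genes and Hsph1), an Hsp90, the mitochondrial chaperonin (Hspd1, Hspe1), a DnaJ protein of class A, B or C, a BAG protein, or the Hsp90 co-chaperones Stip1, Ahsa1 and Ahsa2. Hspa5 and Hsp90b1, the main chaperones of the endoplasmic reticulum, were left out. This gave 67 genes, measured by 80 probes, of 16504 named genes and 19624 features in all. Hsp90aa1 was the only Hsp90 gene among the members, and Hsp90ab1 is not analysed here. Every member entered the test, since no filter on low values was applied.

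Hsp70 proteins bind exposed stretches of unfolded proteins in a cycle driven by ATP. J-proteins, the DnaJ family, bring clients to Hsp70 and trigger its ATP hydrolysis, while Hsp110 and BAG proteins help it let go of the nucleotide. Stip1 passes clients on to Hsp90, and Ahsa proteins speed up the ATPase of Hsp90. Fiber cells of the lens lose their organelles as they mature and keep their proteins for life, so protein folding and aggregation are long-standing subjects of lens biology.

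RNA of mature fibers was hybridised against RNA of elongating fibers on 6 two-colour arrays. Mature fibers were in channel 1 on 3 arrays (lens249, lens487 and lens493) and in channel 2 on the other 3 (lens250, lens488 and lens455). Both populations came from mice of the strain TgN(GFPU)5Nagy, which carries a GFP transgene, and were isolated from 5 µm sections by laser capture. Lenses had been fixed in paraformaldehyde or in the methanol-based reagent UMFIX, which of them for which array is not stated, and the zones were mapped by the pattern of GFP. For lens249 and lens250 the labels add that lenses of P5 littermates were pooled to reach at least 200 cells of a zone, typically from about 40 slices. The labels of the other 4 arrays give no age. Whether the arrays came from separate animals or extracts is not stated, so p-values measure the spread between arrays, which may be technical. Each value is a log ratio of the 2 channels in deposited log units. Neither the base of the logarithm nor the numerator is known.

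The sign was turned on lens250, lens488 and lens455, so that all 6 arrays run one way, and each was centred on its median. With channel 1 as numerator a positive value is higher in mature fibers, and with channel 2 as numerator it is lower there. The positive side is that of the nuclease gene Dnase2b (1.81 ± 0.30, SD, n = 6), the negative side that of the N-cadherin gene Cdh2 (-1.78 ± 0.54). Of 14 lens fiber markers measured, these 2 (14.3%, against 1.73% of all features) passed the test below and 12 did not. The median of the 14 means was 0.039. Ratios hold no expression levels, so whether either zone carried fiber markers at all could not be checked. Of the markers of other cells, 2 of 16 for lens epithelium (Col4a1 and Igfbp7, 12.5%) passed the test below on the negative side. For macrophages 1 of 11 (Laptm5, 9.09%) passed on the positive side, against 1.73% of all features on either side. In limma 5 of the 16 (31.2%, 4 negative and 1 positive) and 2 of the 11 (18.2%) had an unadjusted p under 0.05, against 16.2% of all features. None of the 10 blood and vessel or 13 retina and pigment cell markers passed in limma, where 0 and 3 had an unadjusted p under 0.05. The part of such cells in the results was not tested. With RNA from dissected zones, fewer cells of a type and less RNA per cell cannot be told apart.

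Some arrays of opposite orientation resembled each other. Across the 67 chaperone genes the turned ratios of lens487 and lens488 correlated with r = 0.82, those of lens493 and lens455 with r = 0.85, and those of lens249 and lens250 with r = 0.23. The other 12 combinations of arrays lay between 0.10 and 0.34, a range that includes lens249 with lens250. Genes are not independent replicates, so these correlations carry no p. The pairs lens249 with lens250 and lens487 with lens488 have neighbouring title numbers, and lens493 with lens455 is the pair left over. If the arrays of a pair share RNA, the study has 3 replicates in place of 6, and results are therefore also given by pair.

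**Figure D1:**
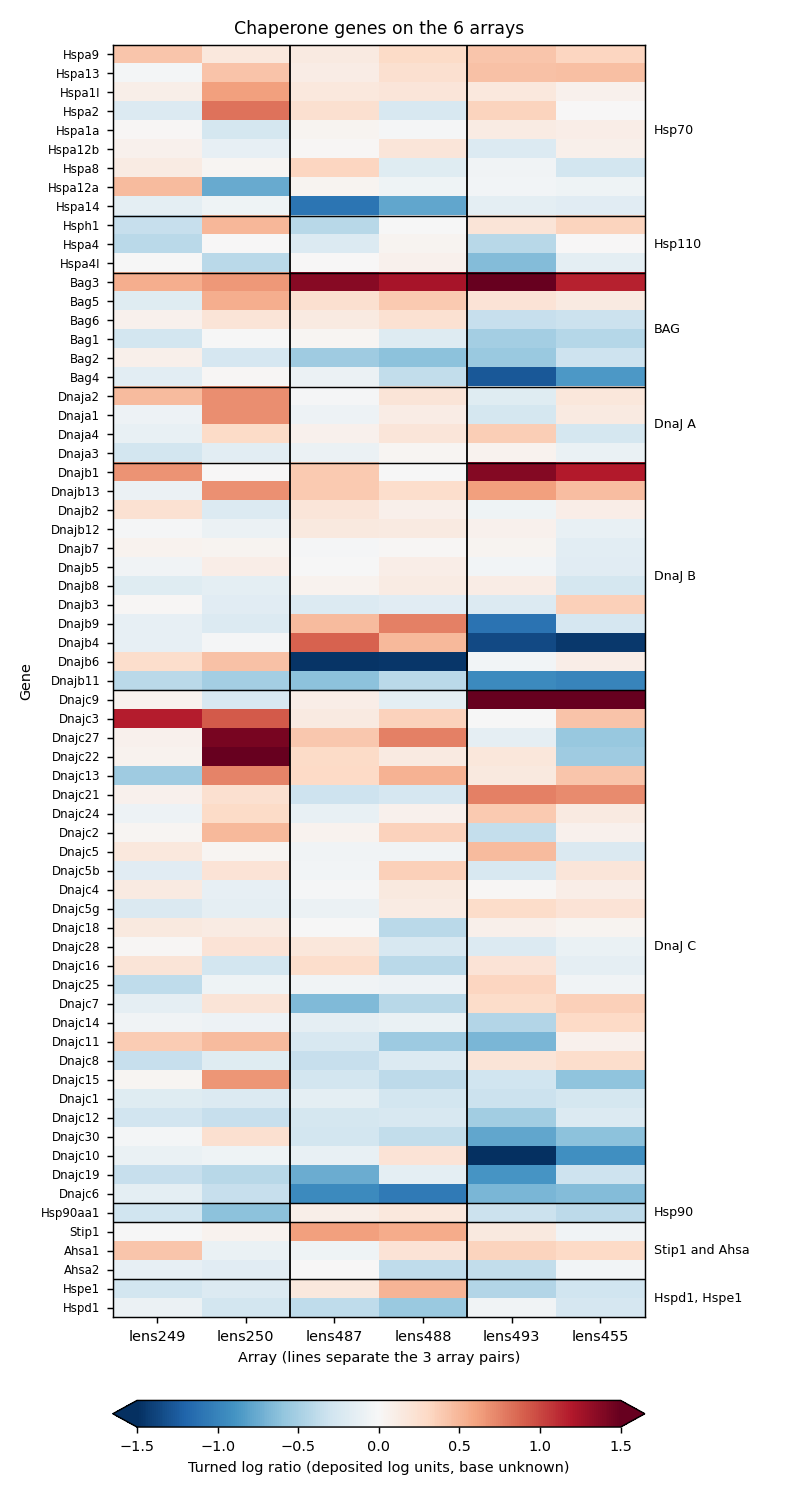
Turned log ratio of each of the 67 chaperone genes (rows, by subfamily) on each of the 6 arrays (columns, by array pair), with colour from blue (negative side) to red (positive side) in deposited log units of unknown base. Bag3 is red and Dnajb11 blue in every column, while Dnajc9, Dnajb4 and Dnajb6 are strongly coloured on single pairs.

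Of the 67 chaperone genes, 2 had an adjusted p under 0.05 in limma and 65 did not. Bag3 was positive and Dnajb11 negative. The share of all features called was 1.73%, with 0.372% positive and 1.36% negative, and 2.99% of the chaperone genes were called. At an unadjusted p under 0.05 there were 19 members, 8 positive and 11 negative (28.4%), against 16.2% of all features. At an adjusted p under 0.1 there were 6, against 3.77% of all features. The mean lay above 0 for 30 members, against 51.0% of all features, and below 0 for 37. It was at least 0.5 in size for 6 members (Bag3, Dnajb1, Dnajb11, Dnajc3, Dnajc6 and Dnajc9), against 4.04% of all features. The 3 pair means had one sign for 30 members, against 37.7% of all features. The median of the members' 6-array means was -0.0058, against 0.003 for all features, and the median size was 0.16, against 0.089. Members lay on both sides.

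Bag3, a BAG co-chaperone that joins Hsp70 to small heat shock proteins and to the autophagy of misfolded proteins, had the largest mean of the 67 genes. Its turned log ratio was 0.55 on lens249 and 0.65 on lens250, 1.37 on lens487 and 1.24 on lens488, and 1.56 on lens493 and 1.15 on lens455. All 6 values lay above 0, with the lens249 and lens250 pair the lowest. The mean was 1.09 ± 0.40 (SD, n = 6, 95% interval 0.74 to 1.43, limma adjusted p = 0.023), or 2.12-fold on a log2 scale and 12.2-fold on a log10 scale. The dye effect of Bag3 was 0.073 (limma adjusted p = 0.88). The call held without lens249 (1.24, limma adjusted p = 0.033) and without lens250 (1.18, 0.049). It was lost without lens487 (1.03, limma adjusted p = 0.092), lens488 (1.03, 0.11), lens493 (0.98, 0.061) or lens455 (1.05, 0.086). On the 3 averaged pairs Bag3 had 0.60, 1.30 and 1.35 and did not pass (limma adjusted p = 0.26). On averaged pairs 0 of 19624 features passed in limma, and 2395 (12.2%) had an unadjusted p under 0.05. The macrophage marker Laptm5 (0.35 ± 0.21), 1 of 11 of its list, lay on the side of Bag3, and its part in this result was not tested.

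Dnajb11 encodes a J-protein of the endoplasmic reticulum, ERdj3, that works with Hspa5 and can bind unfolded proteins itself. It had -0.41 on lens249 and -0.51 on lens250, -0.62 on lens487 and -0.41 on lens488, and -0.96 on lens493 and -0.99 on lens455. All 6 values lay below 0, with lens493 and lens455 the farthest. The mean was -0.65 ± 0.26 (SD, n = 6, 95% interval -0.90 to -0.40, limma adjusted p = 0.038), or 1.57-fold on a log2 scale and 4.46-fold on a log10 scale. The call was lost in each of the 6 fits without 1 array, where the mean lay between -0.71 and -0.56 (limma adjusted p from 0.064 to 0.13). On the 3 averaged pairs Dnajb11 had -0.46, -0.51 and -0.98 (limma adjusted p = 0.29). Of the 16 epithelial markers, whose median was 0.01, Col4a1 (-0.95 ± 0.38) and Igfbp7 (-0.65 ± 0.20) passed on the same side. In limma 4 negative and 1 positive of the 16 had an unadjusted p under 0.05. The part of epithelial cells in this result was not tested.

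Promoters are shown for both called genes and, to set Bag3 beside classical heat shock genes, for Hsph1 and Hspd1. Promoter sequences came from RefSeq (build GRCm38.p6), from 250 bases before to 50 after the start, and 54 of the 67 members matched by gene ID. Heat shock elements, the sites of heat shock factors, are built from GAA units in alternating direction. Both strands were searched for 2 adjoining units, GAANNTTC or TTCNNGAA, and for 3 units, in which both 2-unit forms overlap by 1 unit. Capitals mark 2-unit matches in Bag3 (chr7:128523333-128523632, + strand), Hsph1 (chr5:149636266-149636565, - strand) and Hspd1 (chr1:55087883-55088182, - strand), and, in Dnajb11 (chr16:22857595-22857894, + strand), CCAAT boxes as they read on the opposite strand.
Bag3: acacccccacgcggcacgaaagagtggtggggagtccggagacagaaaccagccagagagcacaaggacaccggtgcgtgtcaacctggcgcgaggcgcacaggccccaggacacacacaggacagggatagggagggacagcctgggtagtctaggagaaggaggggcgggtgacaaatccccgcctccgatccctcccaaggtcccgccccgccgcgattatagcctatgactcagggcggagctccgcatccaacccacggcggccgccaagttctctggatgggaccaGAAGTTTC
Dnajb11: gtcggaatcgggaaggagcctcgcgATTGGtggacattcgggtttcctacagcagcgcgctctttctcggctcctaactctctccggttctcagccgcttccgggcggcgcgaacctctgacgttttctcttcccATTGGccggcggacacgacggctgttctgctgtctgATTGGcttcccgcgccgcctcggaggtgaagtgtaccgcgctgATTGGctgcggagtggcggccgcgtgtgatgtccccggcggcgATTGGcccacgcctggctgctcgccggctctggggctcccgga
Hsph1: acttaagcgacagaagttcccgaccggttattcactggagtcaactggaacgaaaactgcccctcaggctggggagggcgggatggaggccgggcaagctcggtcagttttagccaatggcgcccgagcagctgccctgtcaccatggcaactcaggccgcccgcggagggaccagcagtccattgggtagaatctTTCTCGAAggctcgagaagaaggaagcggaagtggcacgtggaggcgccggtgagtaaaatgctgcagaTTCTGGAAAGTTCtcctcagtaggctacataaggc
Hspd1: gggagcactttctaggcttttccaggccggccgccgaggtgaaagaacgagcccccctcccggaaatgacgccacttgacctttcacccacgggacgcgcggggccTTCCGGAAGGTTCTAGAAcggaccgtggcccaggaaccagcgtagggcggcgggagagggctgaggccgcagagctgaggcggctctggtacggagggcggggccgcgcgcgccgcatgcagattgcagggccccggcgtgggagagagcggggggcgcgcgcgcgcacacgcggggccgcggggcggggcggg

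The Bag3 window held 1 match of 2 units, beginning at base 43 after the start. This match ended at the last base of the window. Whether a further unit follows it, making 3 units, could not be seen in this search. Hsph1 had 3 matches of 2 units and 1 of 3 units. The Hspd1 window shown, 1 of 2 in the table for this gene, had a run of 3 overlapping 2-unit matches, the first at base -144 relative to the start, with 2 matches of 3 units. The other Hspd1 window held 0 matches of either length. Hspe1 lies on the opposite strand and its window overlaps that of Hspd1, so both genes share this run. A 3-unit match was found in 4 of the 54 members, Dnajb6, Hspd1, Hspe1 and Hsph1 (7.41%), against 0.662% of the 27025 genes in the table. None of these 4 passed the test, and their means lay between -0.36 and 0.04. A 2-unit match of either kind was found in 12 members (22.2%), against 17.0% of all genes, and Bag3 was the only 1 of the 12 that passed. The Dnajb11 window held 5 CCAAT boxes, searched as CCAAT on both strands. At least 5, a cut equal to the count of Dnajb11 itself, were found in 0.311% of genes and in no other of the 54 members. At least 4 were found in 4 members (Dnajb11, Dnajb5, Dnajc4 and Stip1, 7.41%), against 1.22% of genes, and of these Dnajb11 alone passed the test. At least 1 was found in 23 members (42.6%), against 41.1% of genes. A match is a description of letters in this window and not a site shown to be bound.

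None of the other 11 genes known to be induced by heat shock passed in limma, and 2 (Dnajb1 and Hspd1) had an unadjusted p under 0.05. With Bag3 that made 3 of 12 (25.0%), against 16.2% of all features. Dnajb1, the J-protein Hsp40 that partners inducible Hsp70, had 0.67 on lens249 and 0.004 on lens250, 0.39 on lens487 and -0.01 on lens488, and 1.38 on lens493 and 1.19 on lens455. It was high on one pair and mixed on the other 2, and its mean of 0.60 ± 0.59 did not pass (limma adjusted p = 0.20). Hspa1a, the inducible Hsp70 itself, had a mean of 0.0013 ± 0.14, with a 95% interval from -0.16 to 0.16 and values between -0.26 and 0.12. Hspa1a has a nearly identical neighbour gene, Hspa1b, that is not analysed here, and a probe may not tell them apart. Hspa8, known as the constitutive Hsp70, is counted here among the 12 genes. It lay between -0.28 and 0.32 with a mean of -0.0055 ± 0.21 (95% interval -0.18 to 0.17). Hsph1, the inducible Hsp110, had 0.04 ± 0.37 (95% interval -0.21 to 0.29), and Hsp90aa1, the inducible Hsp90, -0.23 ± 0.30 (95% interval -0.50 to 0.041). Of the 12 heat-inducible members, a group put together with the values known, 1 passed (8.33%, against 1.73% of all features). In this group 7 means lay above 0, and the median was 0.021.

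**Figure D2:**
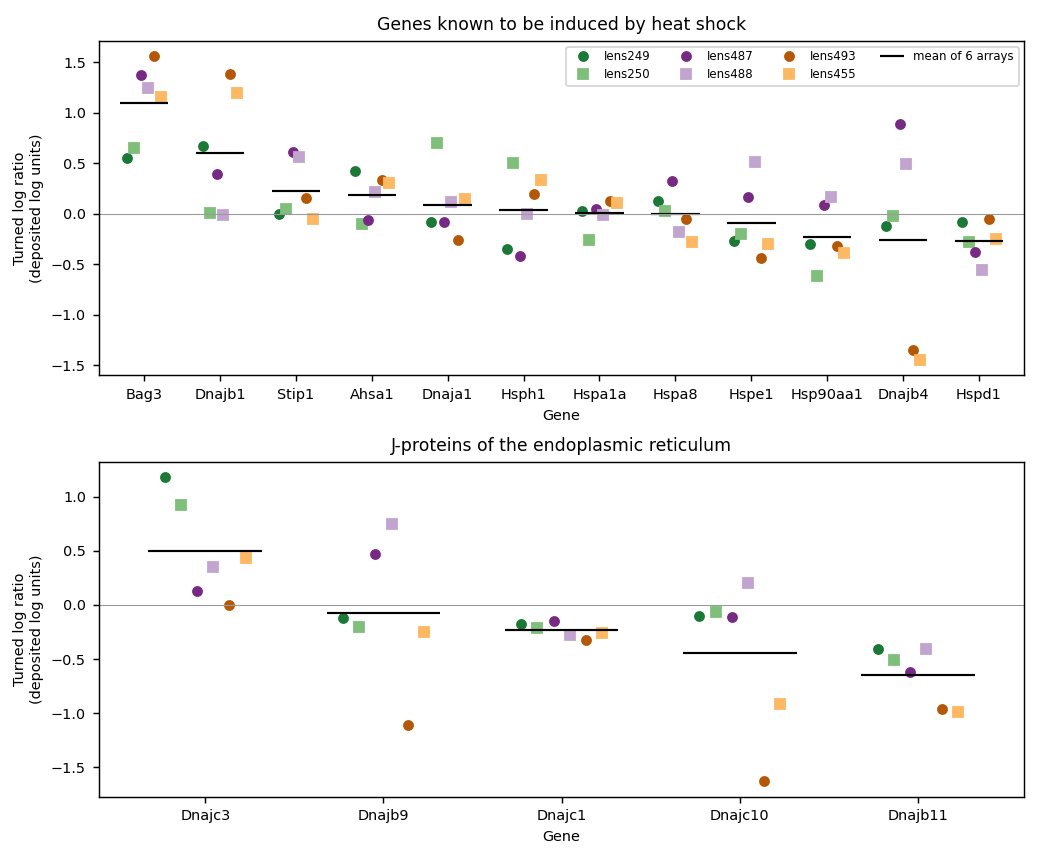
Turned log ratio (y axis, deposited log units of unknown base) of 12 genes known to be induced by heat shock (upper panel) and of 5 J-proteins of the endoplasmic reticulum (lower panel), with 1 point for each array, circles for mature fibers in channel 1, squares for elongating fibers in channel 1, 1 hue for each array pair, and a bar at the mean of 6 arrays. All points of Bag3 lie above 0, all points of Hspd1, Dnajb11 and Dnajc1 lie below it, and the other genes have points on both sides.

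Of the 9 Hsp70 proteins 0 passed in limma. An unadjusted p under 0.05 was found for 4 (44.4%, against 16.2% of all features), of which 3 were positive. Hspa9, mortalin, the Hsp70 of the mitochondrial matrix that pulls proteins through the import channel, had 0.42, 0.16, 0.13, 0.29, 0.42 and 0.32 on lens249, lens250, lens487, lens488, lens493 and lens455. All 6 lay above 0 within a narrow range, and the mean was 0.29 ± 0.13 (limma adjusted p = 0.097). Hspa13, a divergent Hsp70 of microsomes, had 0.27 ± 0.20 (limma adjusted p = 0.16), and Hspa1l, known mainly from testis, 0.21 ± 0.21 (limma adjusted p = 0.27). Hspa14, which in human cells forms a ribosome-bound complex with Dnajc2, had -1.10 on lens487 and -0.78 on lens488 but between -0.17 and -0.064 elsewhere. Its mean was -0.40 ± 0.43 (limma adjusted p = 0.27), and Dnajc2 had 0.10 ± 0.29.

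Of the 6 BAG genes Bag3 alone passed in limma (16.7%, against 1.73% of all features). An unadjusted p under 0.05 was found for 5 (83.3%), 2 positive and 3 negative, against 16.2% of all features. In the BAG family Bag4, known for silencing death receptors, had -1.27 on lens493 and -0.86 on lens455 and between -0.37 and 0.022 elsewhere, with a mean of -0.45 ± 0.51 (limma adjusted p = 0.29). Bag2, which restrains the ubiquitin ligase Stub1, had -0.37 ± 0.26 and was below 0 on 5 of 6 arrays (limma adjusted p = 0.15). Bag1, the founding member, had -0.23 ± 0.22 (limma adjusted p = 0.28), while Bag5 had 0.22 ± 0.25 on the side of Bag3 (limma adjusted p = 0.28). Bag6, a scaffold for newly made membrane proteins, had -0.0058 ± 0.26. Bag3 was the only member of the 6 with one sign on all arrays.

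In the Hsp110 group, which exchanges the nucleotide of Hsp70, the 3 probes of Hspa4 disagreed. They had means of -0.52, 0.027 and -0.0025, and the gene's mean was -0.16 ± 0.21 (limma adjusted p = 0.24). Fitted by itself, the first probe passed over all probes (limma adjusted p = 0.018). That probe lay between -0.98 and -0.80 on the arrays with mature fibers in channel 1 but between -0.20 and -0.06 on the others. Its dye effect was -0.39 (limma adjusted p = 0.26). Hspa4l, a testis-rich relative, had -0.19 ± 0.28 (limma adjusted p = 0.46).

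**Figure D3:**
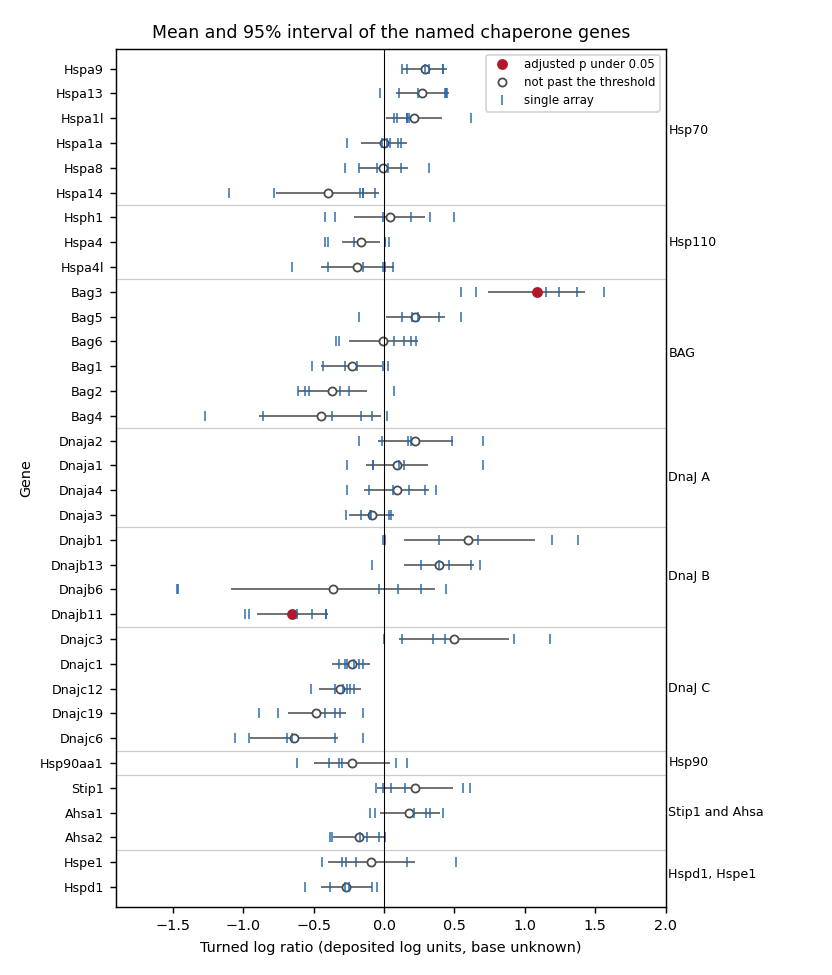
Mean turned log ratio (circles) with its 95% interval from limma (lines) and the values of single arrays (ticks) for the 34 named chaperone genes, by subfamily, in deposited log units of unknown base. Filled circles mark Bag3 and Dnajb11, the genes past an adjusted p of 0.05, and the intervals of the 19 genes with an unadjusted p under 0.05, these 2 included, lie wholly on one side of 0, 11 below and 8 above.

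J-proteins made up 43 of the 67 members, and Dnajb11 was the only 1 of them that passed. The class A J-proteins, the close relatives of bacterial DnaJ, had means from -0.088 to 0.22, and 0 of 4 were called in limma or had an unadjusted p under 0.05. Dnaja1, the cytosolic partner of Hspa8, had 0.089 ± 0.33, Dnaja2 had 0.22 ± 0.32, Dnaja4 0.089 ± 0.24 and the mitochondrial Dnaja3 -0.088 ± 0.12. In class B, 2 positive and 1 negative of 12 had an unadjusted p under 0.05, among them Dnajb13, a part of the sperm flagellum's radial spokes, with 0.39 ± 0.28 (limma adjusted p = 0.14). In class C, 1 positive and 4 negative of 27 did. These shares were 25.0% in class B and 18.5% in class C, against 16.2% of all features.

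The J-proteins of class C with the lowest p lay on the negative side with Dnajb11. Dnajc19, a part of the motor that imports proteins into mitochondria, had -0.35 and -0.42, -0.75 and -0.15, and -0.89 and -0.31 on the pairs in the order above. It was below 0 on every array, with a mean of -0.48 ± 0.28 (limma adjusted p = 0.053). Dnajc6, auxilin, which recruits Hsp70 to strip the coat from clathrin vesicles, had -0.15 and -0.35, -0.96 and -1.06, and -0.69 and -0.65. It too lay below 0 throughout, with a mean of -0.64 ± 0.35 (limma adjusted p = 0.068). Its broadly expressed relative Gak, a J-protein under another name, had -0.47 ± 0.41 and was likewise below 0 on 6 arrays (limma adjusted p = 0.20). Dnajc12, which in humans helps to fold the aromatic amino acid hydroxylases, lay between -0.52 and -0.21, with a mean of -0.31 ± 0.11 (limma adjusted p = 0.069). Of the 67 members 10 (14.9%) had one sign on all 6 arrays, against 9.26% of all features. Of these 10 members 7 were negative, as were 1126 of the 1817 features with one sign.

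The J-proteins of the endoplasmic reticulum, which serve Hspa5, lay on both sides. Dnajc1, a membrane protein that binds ribosomes, had -0.23 ± 0.06 and was below 0 on 6 of 6 arrays (limma adjusted p = 0.11). Its 2 probes had means of -0.43 and -0.034, and the first passed when probes were fitted singly (limma adjusted p = 0.038). Dnajc3, also an inhibitor of eIF2 alpha kinases, lay on the other side, with 1.18 on lens249 and 0.92 on lens250 but between -0.002 and 0.43 elsewhere (mean 0.50 ± 0.46, limma adjusted p = 0.21). Dnajc10, a reductase of misfolded proteins' disulfide bonds, had -1.63 on lens493 and -0.92 on lens455 and between -0.11 and 0.20 elsewhere (mean -0.44 ± 0.70, limma adjusted p = 0.43). Dnajb9, induced by the unfolded protein response, had a mean of -0.075 ± 0.65 (limma adjusted p = 0.91). Of these 5 genes, grouped with the values known, 1 passed, Dnajb11.

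Of the 8 mitochondrial chaperones among the members, grouped with the values known, 0 passed in limma. An unadjusted p under 0.05 was found for 3 (37.5%), against 16.2% of all features. Of their means 7 of 8 lay below 0, Hspa9 being the exception, as did those of 9615 of all 19624 features. The median of the 8 means was -0.12, against 0.003 for all features. Hspd1, Hsp60, which encloses proteins for folding, was below 0 on all arrays, between -0.56 and -0.05 (mean -0.27 ± 0.19, limma adjusted p = 0.15). Hspe1, its lid Hsp10, had -0.27 and -0.20, 0.16 and 0.51, and -0.44 and -0.30, with a mean of -0.089 ± 0.36 (limma adjusted p = 0.80). The 2 genes share a promoter region but lay on opposite sides on lens487 and lens488. Of the Hsp90 co-chaperones, Stip1 had 0.22 ± 0.29 (limma adjusted p = 0.41), Ahsa1 0.18 ± 0.21 (0.38) and Ahsa2 -0.18 ± 0.16 (0.32).

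Several J-proteins differed among the array pairs. A limma F-test of the 3 pairs with a dye term, added after the values had been seen, passed for 4 of the 67 members, against 2.82% of all features, and 23 members (34.3%) had an unadjusted p under 0.05, against 16.3%. Dnajc9, a J-protein and histone chaperone, had 2.80 on lens493 and 2.29 on lens455 but between -0.24 and 0.10 on the other arrays (limma adjusted p among pairs = 0.021). Its mean between the populations, 0.81 ± 1.36, did not pass (limma adjusted p = 0.47). Dnajb6, which holds back aggregation of polyglutamine proteins, had -1.47 on lens487 and -1.46 on lens488 but between -0.038 and 0.44 elsewhere (limma adjusted p among pairs = 0.022, between populations 0.63). Dnajb4, another cytosolic J-protein, had 0.89 and 0.49 on that pair but -1.35 on lens493 and -1.45 on lens455 (limma adjusted p among pairs = 0.024), with -0.12 and -0.02 on lens249 and lens250. Dnajc10 was the fourth (limma adjusted p among pairs = 0.044), and Dnajb1 just missed (0.051). The high or low pair differs from gene to gene, and whether a pair stands for an RNA extract, an animal or a processing batch cannot be told from the labels.

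**Figure D4:**
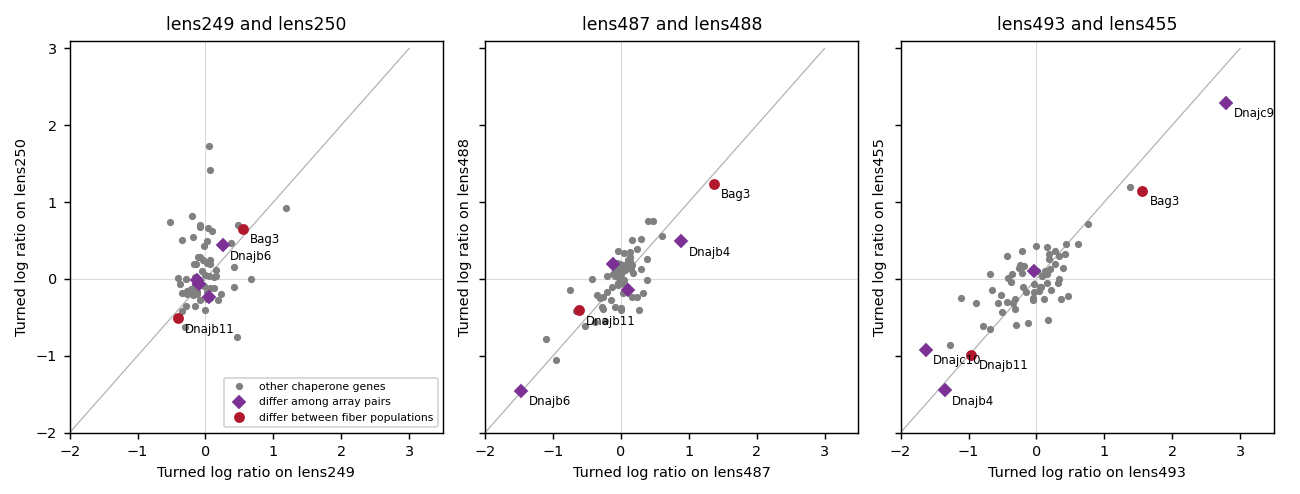
Turned log ratios of the 67 chaperone genes on the 2 arrays of each pair (x and y axes, deposited log units of unknown base), with the line of equal values. Red circles are Bag3 and Dnajb11, and purple diamonds are the 4 genes that differ among array pairs. Points follow the line on lens487 with lens488 and on lens493 with lens455, where Dnajc9 lies at 2.80 and 2.29, and scatter more on lens249 with lens250.

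Dye effects were not past the threshold for any chaperone gene in limma (0 of 67 and 0 of 19624 features), with 5 members (7.46%) at an unadjusted p under 0.05, against 12.6% of all features. Dnajc16, the lowest in p, had 0.19, 0.26 and 0.21 with mature fibers in channel 1 and -0.28, -0.41 and -0.14 with elongating fibers in channel 1 (dye effect 0.25, limma adjusted p = 0.27). Dnaja1, Dnajc5b and Hspa4 were below 0 on every array with mature fibers in channel 1 and above 0 on every other array. On single arrays Dnajc22 had 1.73 and Dnajc27 1.42, both on lens250, where lens249 had 0.052 and 0.068. Neither passed between the populations (means 0.31 ± 0.76 and 0.32 ± 0.70).

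Beyond the members, 57 further genes of the chaperone network were measured, of which 1 passed (1.75%, against 1.73% of all features). At an unadjusted p under 0.05 there were 2 positive and 7 negative (15.8%, against 16.2%), so both shares lay near those of all features. The gene that passed was Hikeshi, the carrier that takes Hsp70 into the nucleus during heat shock, with -0.46 ± 0.11 and all 6 values between -0.60 and -0.29 (limma adjusted p = 0.025). Among the 41 other co-chaperones of Hsp70 and Hsp90, Hikeshi included, Ppid, a cyclophilin of the Hsp90 complex, had -0.66 ± 0.57 (limma adjusted p = 0.17) and Sugt1, an Hsp90 partner, -0.34 ± 0.23 (0.13). Of 5 heat shock factors and regulators 0 passed in limma and 1 had an unadjusted p under 0.05. Hsf4, the heat shock factor on which lens development depends, had 0.048 ± 0.17, and Hsbp1, which binds and restrains heat shock factor trimers, -0.70 ± 0.45 (limma adjusted p = 0.098). Of 9 small heat shock proteins 0 passed in limma and 1 had an unadjusted p under 0.05. That was Hspb1, Hsp27, a client-holding partner of Bag3, with 0.86 and 0.13, 2.11 and 1.80, and 1.02 and 0.91 on the 3 pairs (mean 1.14 ± 0.71, limma adjusted p = 0.077). Hspb8, the best-known partner of Bag3, had 0.063 ± 0.10, and Cryab, a crystallin of this family, 0.051 ± 0.15.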

How the data were processed

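The authors deposited 1 log ratio for each of 22575 probes and array, with 0 missing. Their log base, numerator and normalization are unknown here. Gene symbols came from the platform annotation: 18218 probes had 1 symbol, 16 several and 4341 none. Of those with 1 symbol, 18175 matched RefSeq's gene table by ID. Identical rows of a gene were counted once, 1032 probes in 10 sets of at least 49 identical unlisted rows were left out, arrays were centred on their median, and probes of a gene were averaged. The analysis had been planned on a log2 scale and was kept in deposited units. Testing used lmFit and eBayes of limma 3.58.1 (R 4.3.3), two-sided, with terms for the population difference and the dye, adjusted by Benjamini-Hochberg over 19624 features. It was checked on simulated data in which each array varied independently. That check does not bear on whether the arrays of a pair share RNA. SDs are over the 6 turned arrays and include the dye effect, which the 95% intervals do not. The 4 figures were drawn with matplotlib 3.10.9.

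Members and lists were chosen with earlier results of these data known. Genes were named by rule: members past the threshold, with an unadjusted p under 0.05, up to 4 of the lowest p in each subfamily, a set of classical chaperones, and from each further list those past the threshold or the 2 lowest in p. Others were added after their values were seen: Dnajb4, Dnajc9, Dnajc10, Dnajb9, Dnajc2, Dnajc5b, Dnajc16, Dnajc22 and Dnajc27 among the members, and Hspb8, Cryab, the fiber genes Dnase2b and Cdh2 and the called cell markers. Alternatives covered centring, scaling, rows, the dye term, single probes, array weights, array pairs, each array left out and each orientation alone. The number of arrays limits the precision. After turning, arrays of a pair correlated with r from 0.14 to 0.61 over all features, other arrays of opposite orientation with 0.04 to 0.16, and arrays of one orientation with 0.124 to 0.342. The pair lens249 with lens250 (0.137) lay within these ranges. By rank (Spearman) over all features that pair had -0.004, lens487 with lens488 0.356 and lens493 with lens455 0.223. Rank correlations of arrays of one orientation lay between 0.148 and 0.346, so by rank lens493 with lens455 lay within that range. The deviations of paired arrays from their orientation's mean correlated with 0.19 to 0.57, those of other arrays of opposite orientation with -0.36 to -0.05. Each mean includes the array itself, so these correlations are not independent of each other.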

Additional observations from a re-analysis of the deposited data

Results flagged for a closer look

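In 2 of the 34 named chaperone genes a single array stood far from the other 5. By chance about 1 in 20 genes would, here 1.7. The array was lens250 both times. Hspa1l had 0.62 there, against 0.068 to 0.18 on the other arrays, whose mean was 0.13. Hspa1a had -0.26 there, against -0.016 to 0.12, with a mean of 0.054.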

How the results depend on the processing

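Bag3 and Dnajb11 kept their sign in all 16 alternative fits, Bag3 with means from 0.98 to 1.24 and a call in 9, Dnajb11 with means from -0.71 to -0.56 and a call in 6. The number of chaperone genes called was 1 with all deposited rows kept, 4 with single probes, 4 with array weights, 0 on the 3 averaged pairs, 0 in either orientation alone and 6 at an adjusted p of 0.1. Without 1 array it was 0 to 1. Over all features 656 were called with array weights, 739 at an adjusted p of 0.1, 0 on averaged pairs and 0 in either orientation alone, and 16 to 117 without 1 array (16 without lens488). In limma 15 chaperone genes (22.4%, against 12.2% of all features) had an unadjusted p under 0.05 on averaged pairs. With the arrays of mature fibers in channel 1 alone there were 9 (13.4%, against 13.3%). With those of elongating fibers in channel 1 alone there were 11 (16.4%, against 13.6%). Of the further chaperone network 2 were called without the dye term, 3 with array weights, 3 at an adjusted p of 0.1, 0 on averaged pairs, 0 in either orientation alone and 0 to 1 without 1 array. Dnajc19 passed with arrays scaled to one spread (-0.50) and with array weights (-0.46), and Dnajc6 without the dye term (-0.64) and with array weights (-0.77). With the pair as a replicate block, added after the data were seen, 282 features were called and both chaperone genes stayed called (limma adjusted p = 0.029 for Bag3 and 0.044 for Dnajb11). That fit sets 1 correlation within pairs for all features, here 0.129, and so does not treat a pair as 1 replicate. On averaged pairs, which does, the limma adjusted p was 0.26 for Bag3 and 0.29 for Dnajb11. Among named genes without a call, 7 changed sign in some fits: Bag6, Dnaja1, Hspa1a, Hspa8, Hspe1, Hsph1 and Hspa4, the last with -0.16 in all arrays and 0.018 with elongating fibers in channel 1 alone. The planned mark for shared values took in 356 of 426 member values and was not used; a stricter one, added later, marked 0. The causes of these changes were not tested.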
